A study of Homo sapiens with 9 samples.

Results

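In all, 10 genes of the PDGF and VEGF signalling families were described in MDA-MB-231 cells in which ASAH1 was knocked down with either of 2 short hairpin RNAs: the PDGF ligands PDGFA, PDGFB, PDGFC and PDGFD, the PDGF receptor PDGFRB, the VEGF ligands VEGFA, VEGFB and VEGFC, and the co-receptors NRP1 and NRP2. The 10 genes were chosen by name from 26485 measured genes, after their differences between the ASAH1 shRNA and NS shRNA libraries had been seen. Their values in those 2 comparisons are therefore given as a description, and the number past a threshold is printed only beside that for all genes. MDA-MB-231 is a human triple-negative breast cancer line, and ASAH1 encodes acid ceramidase, the lysosomal enzyme that splits ceramide into sphingosine and a fatty acid. RNA of 9 samples was sequenced, 3 from cells with a nonspecific hairpin (NS shRNA), 3 from ASAH1 shRNA #1 cells and 3 from ASAH1 shRNA #2 cells. All were of the same parental line and expressed a hairpin. There was 1 nonspecific hairpin, and the effects of a given hairpin sequence and of lower ASAH1 cannot be told apart within either knockdown.

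The PDGF and VEGF proteins are related secreted growth factors that work as disulphide-linked dimers and signal through receptor tyrosine kinases. PDGF ligands act mainly on mesenchymal cells such as pericytes and fibroblasts, and VEGF ligands mainly on the endothelium of blood and lymphatic vessels, so a tumour cell can be their source without holding their receptors. The neuropilins NRP1 and NRP2 are membrane co-receptors that bind both VEGF ligands and class 3 semaphorins.

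The libraries held between 23806003 and 49659106 reads on genes. ASAH1 itself lay at 133 to 136 CPM (reads scaled by TMM to a fixed library size, the same for all 9 libraries) in the NS shRNA libraries, at 38.0 to 41.4 with ASAH1 shRNA #1 and at 21.3 to 22.5 with ASAH1 shRNA #2, so each library followed its label and the second hairpin left less of the transcript. ACTB, which encodes a cytoskeletal actin and is often used as a reference gene, was not constant: its log2 difference from NS shRNA was -0.89 with ASAH1 shRNA #1 and -0.52 with ASAH1 shRNA #2. Of 3 genes high in mesenchymal-type breast cancer lines, VIM, CD44 and AXL, the summed level was 3191 to 3887 CPM over all libraries. The members did not move alike from NS shRNA to ASAH1 shRNA #1 and #2. VIM fell from 2006 to 2074 CPM to 1662 to 1742 and 1257 to 1297. AXL went up from 977 to 1032 to 1299 to 1331 and 1159 to 1231. CD44 lay at 778 to 861, 762 to 830.5 and 705 to 813. ESR1 and PGR, the hormone receptors that triple-negative cells lack, had at most 2 reads in any library. ERBB2 lay at 95.6 to 102 CPM with NS shRNA, 59.3 to 63.1 with ASAH1 shRNA #1 and 65.3 to 79.4 with ASAH1 shRNA #2. The 5 endothelial markers PECAM1, CDH5, TEK, VWF and EMCN summed to 1.68 to 3.24 CPM, with CDH5 and EMCN at 3 reads or fewer in every library. TEK and VWF had at most 12 and 14 reads in any library. PECAM1 made up most of the sum and was lower with both hairpins. It lay at 2.815 to 3.02 CPM with NS shRNA, 1.45 to 2.405 with ASAH1 shRNA #1 and 1.17 to 1.925 with ASAH1 shRNA #2. The 6 pericyte and fibroblast markers RGS5, CSPG4, ACTA2, COL1A1, DCN and LUM summed to 104 to 132 CPM with NS shRNA, 134 to 147 with ASAH1 shRNA #1 and 172.5 to 192 with ASAH1 shRNA #2, so their sum moved with the groups, and its part in the results was not tested. The members did not move together: CSPG4 went from 36.7 to 39.0 CPM with NS shRNA to 72.5 to 77.1 and 85.3 to 99.55 with the 2 hairpins, and LUM went down from 3.87 to 4.34 to 2.96 to 3.09 and 0.931 to 1.41. In the same order of groups, RGS5 lay at 3.76 to 4.09, 5.61 to 7.16 and 5.87 to 6.53 CPM, ACTA2 at 37.9 to 64.0, 27.2 to 39.6 and 48.7 to 77.4, and COL1A1 at 18.9 to 22.8, 21.85 to 25.9 and 15.45 to 19.5, while DCN had at most 3 reads in any library.

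The VEGF ligands went apart from one another. VEGFA was higher with both ASAH1 hairpins, VEGFB was lower with both, and VEGFC was about 2-fold higher with ASAH1 shRNA #2 while it lay close to the NS shRNA level with ASAH1 shRNA #1. The stretches before the start sites of VEGFB and VEGFC are shown because these 2 ligands behaved differently under the same hairpins. Each holds the 250 bases before the RefSeq start in GRCh38.p14, read 5′ to 3′ on the strand of the gene. VEGFB covers chr11:64234334-64234583 on the plus strand and VEGFC covers chr4:176792923-176793172 on the minus strand. Capitals mark GC boxes (GGGCGG on either strand), the short motif that Sp1-type factors are known to bind.
VEGFB: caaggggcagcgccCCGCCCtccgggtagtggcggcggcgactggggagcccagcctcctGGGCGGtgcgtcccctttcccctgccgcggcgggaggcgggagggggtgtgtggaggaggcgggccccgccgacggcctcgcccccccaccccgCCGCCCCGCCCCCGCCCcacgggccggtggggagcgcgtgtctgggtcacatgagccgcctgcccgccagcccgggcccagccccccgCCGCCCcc
VEGFC: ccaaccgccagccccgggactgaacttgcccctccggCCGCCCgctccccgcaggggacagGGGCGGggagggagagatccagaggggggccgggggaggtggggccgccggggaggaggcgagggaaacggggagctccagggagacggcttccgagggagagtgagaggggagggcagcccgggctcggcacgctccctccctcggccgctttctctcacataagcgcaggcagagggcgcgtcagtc
The VEGFB window held 6 GC boxes and the VEGFC window 2, at 208 and 184 bases before the start, and GC made up 82.8% and 74.0% of the bases. Neighbouring matches in VEGFB can share a base. Each window also held 1 match to the hypoxia response core (ACGTG or GCGTG, either strand) and no AP-1 site (TGANTCA). Among 35116 RefSeq promoter windows of the same length, 42.6% held a GC box, 43.2% the hypoxia core and 6.57% an AP-1 site, so the first 2 motifs are common and their presence describes the letters only. RefSeq windows were matched for 6 of the 10 genes.

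VEGFA (chr6:43770184-43786487, plus strand) encodes the main driver of blood vessel growth, a ligand of the receptors FLT1 and KDR. Its level was 276, 296 and 313 CPM in the NS shRNA libraries, 775, 779 and 749 with ASAH1 shRNA #1, and 1553, 1524 and 1489 with ASAH1 shRNA #2. The 3 groups stood apart without overlap, in the order NS shRNA, ASAH1 shRNA #1, ASAH1 shRNA #2. On the scale of log2(normalized count + 1), used for every difference from NS shRNA here, VEGFA was 1.38 ± 0.054 (standard error, n = 3 against 3) higher with ASAH1 shRNA #1, a ratio of means of 2.60, and 2.37 ± 0.057 higher with ASAH1 shRNA #2, a ratio of 5.15. Reads were counted per gene, so the VEGFA splice forms are summed. In RNA of bulk cultures, a change in the share of cells that hold a transcript and a change in its amount per cell cannot be told apart.

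VEGFB (chr11:64234584-64239264, plus strand) encodes a ligand of FLT1 that is known for its role in heart and fat tissue. It was measured at 207, 196 and 183 CPM with NS shRNA, 147, 148 and 161 with ASAH1 shRNA #1, and 144, 151 and 161 with ASAH1 shRNA #2. All knockdown libraries lay below all NS shRNA libraries and the hairpins covered nearly the same range. The log2 difference was -0.36 ± 0.058 with ASAH1 shRNA #1 and -0.37 ± 0.063 with ASAH1 shRNA #2.

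VEGFC (chr4:176683538-176792922, minus strand) encodes the chief growth factor of lymphatic vessels, a ligand of FLT4 and, once processed, of KDR. Its level was 142, 142 and 144 CPM with NS shRNA, 140, 137 and 138 with ASAH1 shRNA #1, and 303, 327 and 311 with ASAH1 shRNA #2. The NS shRNA and ASAH1 shRNA #1 libraries differed by a few CPM, and the ASAH1 shRNA #2 libraries stood far above both. The log2 difference was -0.05 ± 0.043 with ASAH1 shRNA #1 and 1.13 ± 0.051, a ratio of means of 2.19, with ASAH1 shRNA #2.

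Among the PDGF ligands, PDGFB was lower with both hairpins by the widest margin of the 9 genes with enough reads, PDGFA was slightly lower with both, and PDGFC was lower with ASAH1 shRNA #1 and higher with ASAH1 shRNA #2. PDGFB (chr22:39223359-39244982, minus strand) encodes the ligand that recruits pericytes to new vessels by way of PDGFRB. It had 206, 216 and 272 reads in the NS shRNA libraries, 20, 39 and 28 with ASAH1 shRNA #1, and 10, 15 and 19 with ASAH1 shRNA #2. Set to a common depth, these were 6.48, 6.40 and 7.52 CPM, then 0.802, 0.950 and 0.812, then 0.300, 0.407 and 0.412, and no 2 groups overlapped. The log2 difference was -2.95 ± 0.14 with ASAH1 shRNA #1, a mean 7.99-fold lower, and -4.10 ± 0.18 with ASAH1 shRNA #2, a mean 18.3-fold lower. With so few reads left, the size of both values depended on the pseudocount. When 5 in place of 1 was added, the first was -2.79 and the second -3.77.

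PDGFA (chr7:497258-520296, minus strand) encodes the ligand that acts through PDGFRA. Its values were 13.1, 13.1 and 11.4 CPM with NS shRNA, 10.2, 8.84 and 11.9 with ASAH1 shRNA #1, and 9.58, 9.895 and 10.9 with ASAH1 shRNA #2. One ASAH1 shRNA #1 library lay inside the NS shRNA range, whereas the ASAH1 shRNA #2 libraries lay just below it. The log2 differences were -0.30 ± 0.11 and -0.31 ± 0.094.

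PDGFC (chr4:156760454-156971799, minus strand) encodes a ligand that is secreted in a latent form and released by proteases. It lay at 146.5, 153 and 150.0 CPM with NS shRNA, at 100.5, 104 and 99.2 with ASAH1 shRNA #1, and at 190.4, 199 and 198 with ASAH1 shRNA #2. The groups did not overlap, and the 2 hairpins lay on opposite sides of NS shRNA, with log2 differences of -0.57 ± 0.044 and 0.38 ± 0.050. PDGFD (chr11:103907189-104164379, minus strand), a ligand of PDGFRB that is also activated by proteolysis, had 3, 2 and 2 reads in the NS shRNA libraries, 1, 1 and 2 with ASAH1 shRNA #1, and 0, 1 and 1 with ASAH1 shRNA #2. At no more than 3 reads per library a difference was not detectable at this depth, and no ratio is given.

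The receptor and the co-receptors also differed from NS shRNA. PDGFRB (chr5:150113839-150155872, minus strand) encodes the receptor tyrosine kinase for PDGF-BB and PDGF-DD, which is usually a marker of mural cells and fibroblasts. It was found at 24.35, 26.35 and 29.5 CPM with NS shRNA, 14.1, 12.0 and 13.3 with ASAH1 shRNA #1, and 11.3, 12.4 and 10.7 with ASAH1 shRNA #2. Every knockdown library was below every NS shRNA library, and the 2 hairpins overlapped. The log2 differences were -1.03 ± 0.093 and -1.22 ± 0.094. PDGFRB and its ligand PDGFB were thus both lower with both hairpins.

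NRP1 (chr10:33177492-33336262, minus strand) encodes the co-receptor that binds the VEGFA165 form and semaphorin 3A. Its level was 274, 297 and 297 CPM with NS shRNA, 235, 243 and 229 with ASAH1 shRNA #1, and 400.3, 400.6 and 362 with ASAH1 shRNA #2. As for PDGFC, the hairpins lay on opposite sides of NS shRNA, with log2 differences of -0.30 ± 0.049 and 0.42 ± 0.060. Soluble and membrane forms of NRP1 come from the same gene and were not separated by counting per gene.

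NRP2 (chr2:205681990-205798133, plus strand) encodes the co-receptor that is best known for lymphatic vessels, VEGFC and semaphorin 3F. It lay at 80.0, 88.9 and 96.6 CPM with NS shRNA, 42.85, 41.1 and 39.1 with ASAH1 shRNA #1, and 78.8, 78.4 and 69.7 with ASAH1 shRNA #2. The ASAH1 shRNA #1 libraries were far below the others, and the highest ASAH1 shRNA #2 library was only just below the lowest NS shRNA library. The log2 difference was -1.11 ± 0.075 with ASAH1 shRNA #1 and -0.23 ± 0.080 with ASAH1 shRNA #2.

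**Figure D1:**
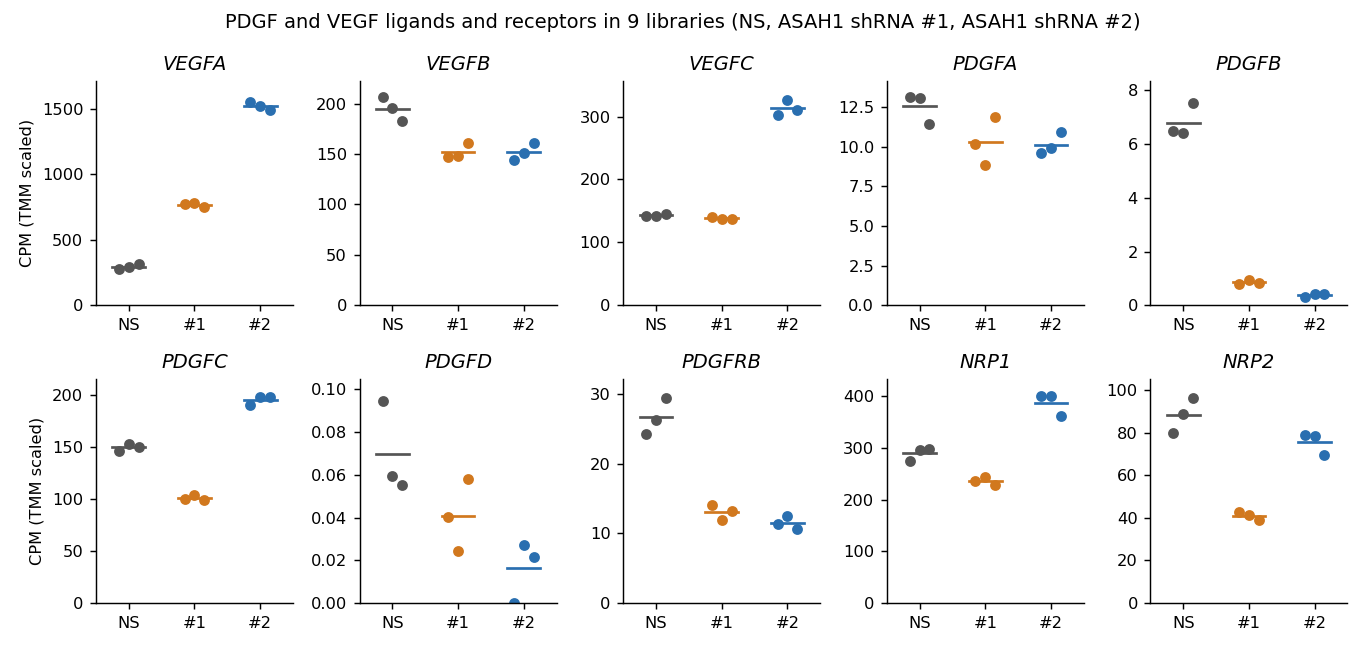
Level in CPM (TMM scaled, vertical axes from 0, a separate scale for each gene) of the 10 genes in the 9 libraries; points are libraries and lines are group means. VEGFA goes from 276 to 313 with NS shRNA to 1489 to 1553 with ASAH1 shRNA #2, PDGFB goes from 6.40 to 7.52 to at most 0.412, and PDGFD rests on at most 3 reads per library.

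Of the 10 genes, 9 passed the filter on low values, PDGFD being left out. With ASAH1 shRNA #1, 8 of these 9 differed from NS shRNA at a limma adjusted p below 0.05, 1 of them higher (VEGFA) and 7 lower, the exception being VEGFC. Among all 14341 genes tested in that comparison 66.1% did so, 32.8% higher and 33.3% lower. With ASAH1 shRNA #2 all 9 did, 4 higher (VEGFA, VEGFC, PDGFC and NRP1) and 5 lower, against 66.9% of 14250 genes, 33.5% higher and 33.4% lower. Because the genes were selected on these contrasts, nothing is read from the counts. The 9 genes had a median log2 difference of -0.36 with ASAH1 shRNA #1 and -0.23 with ASAH1 shRNA #2, beside medians of 0.0013 and 0.013 over all genes tested. Without NS shRNA replicate 2, the number lower with ASAH1 shRNA #2 went from 5 to 3, as PDGFA and NRP2 no longer passed. The comparisons share their 3 NS shRNA libraries, so they are not independent of each other.

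**Figure D2:**
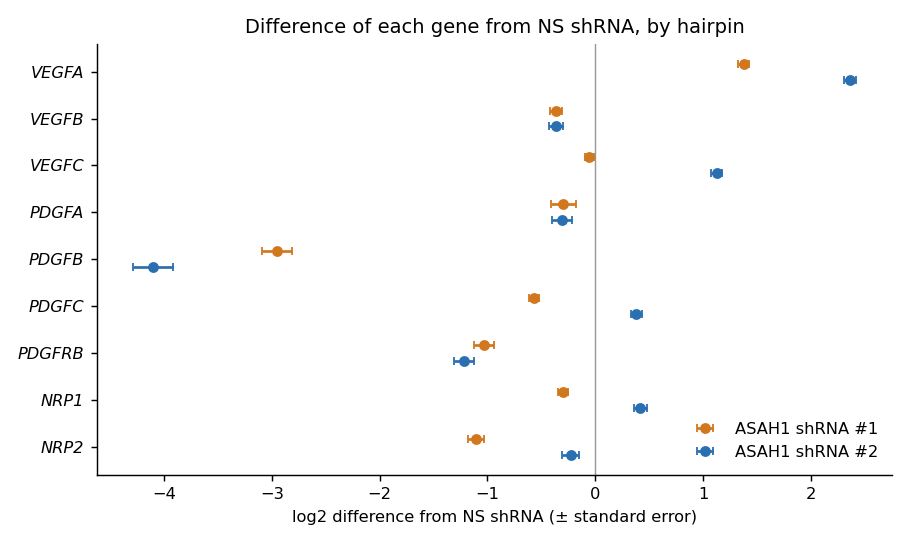
Log2 difference from NS shRNA (horizontal axis, on log2(normalized count + 1)) of the 9 genes with enough reads, for ASAH1 shRNA #1 (orange) and ASAH1 shRNA #2 (blue); bars are standard errors, n = 3 against 3. VEGFB, PDGFA and PDGFRB show nearly the same difference with both hairpins, while PDGFC and NRP1 lie on opposite sides of 0.

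The 2 hairpins were then compared directly, a contrast that the choice of genes did not use, although it shares the 6 knockdown libraries with the contrasts that did. By edgeR's quasi-likelihood test on the reads, 6 of the 9 genes differed between hairpins at an adjusted p below 0.05, 5 higher with ASAH1 shRNA #2 and 1 lower. Among 14714 genes tested 63.3% differed, 31.1% higher and 32.1% lower, so a share of 6 in 9 is near the background. Among the genes higher with ASAH1 shRNA #2, VEGFC differed most, with a log2 ratio of ASAH1 shRNA #2 to ASAH1 shRNA #1 of 1.18 (95% interval 1.08 to 1.27, edgeR adjusted p = 2.84e-09). VEGFA followed at 0.98 (0.88 to 1.08, edgeR adjusted p = 1.6e-08) and PDGFC at 0.94 (0.85 to 1.04, edgeR adjusted p = 1.32e-08).

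Both co-receptors were higher with ASAH1 shRNA #2 than with ASAH1 shRNA #1. The log2 ratio was 0.88 for NRP2 (95% interval 0.71 to 1.04, edgeR adjusted p = 1.65e-06) and 0.71 for NRP1 (0.59 to 0.83, edgeR adjusted p = 4.82e-07). PDGFB was the one gene that was lower with the second hairpin, at -1.19 (-1.66 to -0.72, edgeR adjusted p = 0.000509), and ASAH1 was lower as well, at -0.88. In each of these 6 genes, picked by that test on the same libraries, the 3 libraries of one hairpin lay wholly above those of the other. The share of all genes for which this holds was not computed, so nothing is read from it.

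For 3 genes no difference between hairpins passed the test. The log2 ratio was -0.02 for PDGFA (95% interval -0.27 to 0.22, edgeR adjusted p = 0.856), -0.0086 for VEGFB (-0.145 to 0.128, edgeR adjusted p = 0.911) and -0.19 for PDGFRB (-0.41 to 0.016, edgeR adjusted p = 0.0971). These intervals leave room for differences of up to the bounds given. PDGFRB passed the threshold with upper quartile factors (-0.28, edgeR adjusted p = 0.0234) and without replicate 2 of either ASAH1 shRNA #1 (-0.26, edgeR adjusted p = 0.0499) or ASAH1 shRNA #2 (-0.26, edgeR adjusted p = 0.0492).

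**Figure D3:**
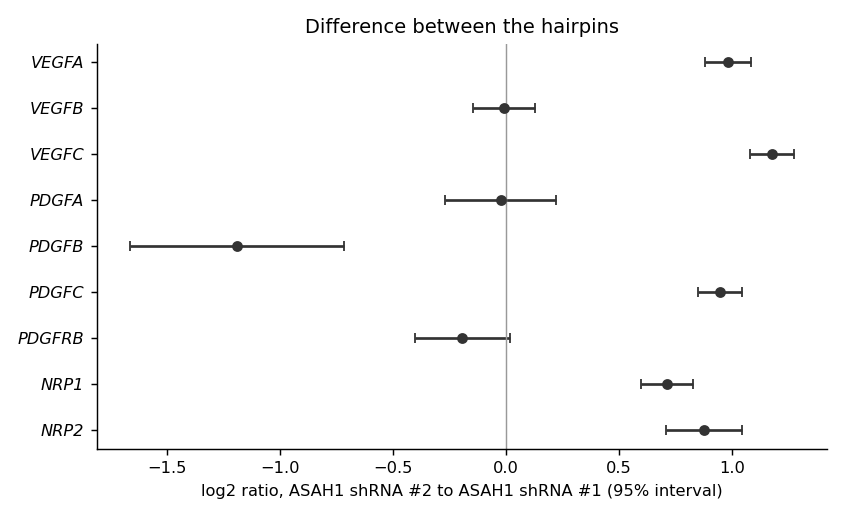
Log2 ratio of ASAH1 shRNA #2 to ASAH1 shRNA #1 (horizontal axis) for the 9 genes with enough reads; points are edgeR estimates from 3 against 3 libraries and bars are 95% intervals. VEGFC, VEGFA, PDGFC, NRP2 and NRP1 lie above 0, PDGFB lies below at -1.19, and the intervals of PDGFA, VEGFB and PDGFRB include 0.

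To set the genes beside one another, CPM values were divided by gene length (all exons of the gene in GENCODE 44, in kb). In NS shRNA cells the level per kb was highest for VEGFB, at 99.1 ± 6.0 (SD, n = 3) CPM per kb. Next came VEGFC at 54.65, NRP1 at 25.1, PDGFC at 25.0 and VEGFA at 20.4, and then NRP2 at 6.37, PDGFRB at 3.75, PDGFA at 2.73, PDGFB at 1.70 and PDGFD at 0.016. NRP1 and PDGFC had overlapping ranges, and all other neighbours in this order were separated in the 3 libraries. Divided by the longest transcript in place of all exons, NRP1 stood at 49.2, PDGFC at 32.8, VEGFA at 24.2, NRP2 at 13.3 and PDGFA at 4.57 CPM per kb in NS shRNA cells. The values thus depend on the length used, while the order of the 10 genes was the same with both lengths. For VEGFA both lengths were long, at 14.43 and 12.17 kb, and the length of the form expressed was not measured. A shorter form would place VEGFA higher, so its place is not settled by this check. With ASAH1 shRNA #1 VEGFA was in the second place at 53.2, with a range that overlapped that of VEGFC at 52.8, behind VEGFB at 77.2. With ASAH1 shRNA #2 the order of the VEGF ligands per kb was VEGFC at 120.0, VEGFA at 105.5 and VEGFB at 77.1, without overlap between libraries. Before division by length VEGFA had the most, at a mean of 1521.9 CPM against 313.7 for VEGFC and 151.9 for VEGFB. The order of VEGFA and VEGFC therefore rests on the length used. PDGFA and PDGFRB changed places relative to NS shRNA, PDGFA being above PDGFRB with both hairpins, though their ranges overlapped with ASAH1 shRNA #1.

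Seen as shares of the VEGF ligand transcripts per kb, VEGFA made up 11.75% ± 1.0 (SD, n = 3) in NS shRNA cells, 29.05% ± 1.0 with ASAH1 shRNA #1 and 34.9% ± 1.2 with ASAH1 shRNA #2. VEGFB went the other way, with 56.9%, 42.1% and 25.5%. VEGFC held 31.4%, 28.8% and 39.65%, and the 3 ligands summed to 174, 183 and 302.5 CPM per kb. Per kb, the sum with ASAH1 shRNA #1 was thus close to that with NS shRNA although its make-up differed. These shares and sums depend on the lengths used, 14.43 kb for VEGFA, 1.97 for VEGFB and 2.615 for VEGFC. Before division by length, VEGFA went from a mean of 294.8 CPM with NS shRNA to 767.9 with ASAH1 shRNA #1. VEGFB went from 195.2 to 152.1 and VEGFC from 142.9 to 138.2, so without length the sum was higher with ASAH1 shRNA #1.

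PDGFC was the bulk of the PDGF ligand transcripts in every group, at 84.9% ± 0.39 for NS shRNA, 87.25% ± 1.7 for ASAH1 shRNA #1 and 93.4% ± 0.34 for ASAH1 shRNA #2. In the same order, PDGFB was 5.79%, 1.11% and 0.27%, and PDGFA was 9.28%, 11.6% and 6.31%. The 4 ligands summed to 29.4, 19.35 and 34.95 CPM per kb, the sum following PDGFC. The ratio of NRP1 to NRP2 per kb was 3.96 ± 0.22 for NS shRNA, 6.94 ± 0.27 for ASAH1 shRNA #1 and 6.18 ± 0.069 for ASAH1 shRNA #2, so NRP1 outweighed NRP2 by more in both knockdowns, whose NRP1 and NRP2 levels themselves differed.

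**Figure D4:**
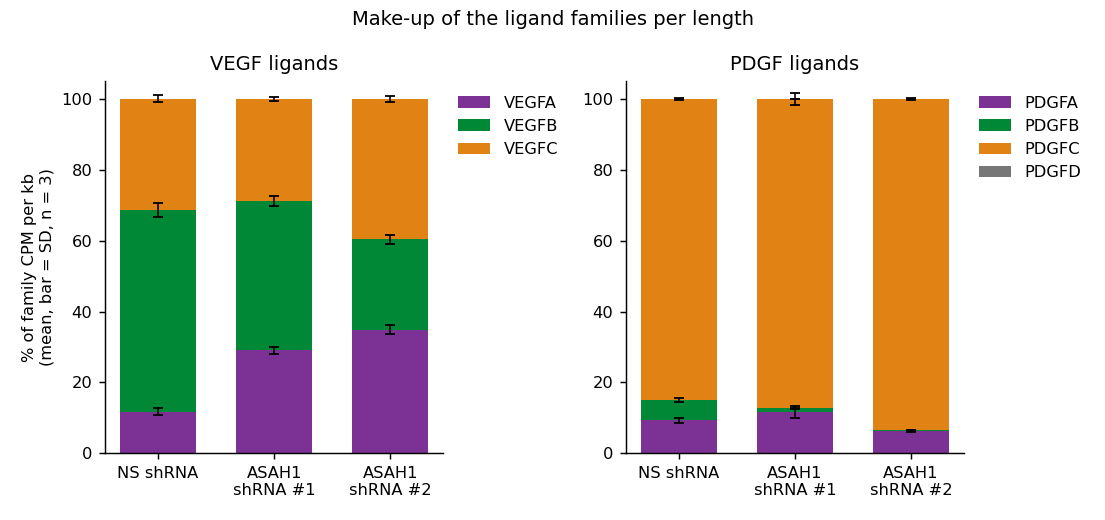
Share of each ligand in its family's CPM per kb (vertical axis, %), stacked by group; segments are means over 3 libraries and bars are SD. The VEGFA share is 11.75% with NS shRNA and 34.9% with ASAH1 shRNA #2, and PDGFC holds at least 84.9% of the PDGF ligands in each group. All shares depend on the gene lengths used.

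The rest of the pathway was read from a list of 50 other genes in 5 groups. Each gene was tested with limma against NS shRNA, with adjustment over all genes tested. With ASAH1 shRNA #1, 43 could be tested and 30 changed, 10 higher and 20 lower, with a median log2 difference of -0.14. With ASAH1 shRNA #2, 42 could be tested and 33 changed, 14 higher and 19 lower, with a median of -0.11. The shares that changed lie near or somewhat above the 66.1% and 66.9% of all genes. By direction, 32.8% of all genes were higher and 33.3% lower with ASAH1 shRNA #1, and 33.5% and 33.4% with ASAH1 shRNA #2. The counts in the single groups below rest on few genes each and are to be read beside these shares. The genes named in each group were picked for the largest differences past the threshold in the same comparisons. Their adjusted p-values there are therefore given as a description.

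Of the other ligands and receptors, the 3 genes with enough reads were PGF, PDGFRL and KDR. PGF, which encodes placental growth factor, a ligand of FLT1, had 7.80, 7.82 and 6.27 CPM with NS shRNA, 1.36, 1.53 and 1.54 with ASAH1 shRNA #1, and 1.47, 1.22 and 1.365 with ASAH1 shRNA #2. Its log2 difference was -2.28 ± 0.13 with ASAH1 shRNA #1 (limma adjusted p = 5.94e-07) and -2.41 ± 0.14 with ASAH1 shRNA #2 (limma adjusted p = 2.73e-07). PDGFRL, a PDGF receptor-like protein, was lower by similar margins with the hairpins, at -1.26 and -1.51 (limma adjusted p = 3.17e-05 and 2.2e-06). KDR, the main signalling receptor of VEGFA, was outside that rule with ASAH1 shRNA #1 and #2 and was also chosen after its values were seen, as the remaining gene of this group. Its level was 9.41, 9.60 and 10.9 CPM with NS shRNA, 12.7, 10.35 and 10.0 with ASAH1 shRNA #1, and 4.29, 5.15 and 4.94 with ASAH1 shRNA #2. KDR fell with ASAH1 shRNA #2 (-1.06, limma adjusted p = 1.24e-05), and its difference with ASAH1 shRNA #1 was 0.13 (limma adjusted p = 0.303). The receptors PDGFRA, FLT1 and FLT4 and the ligand VEGFD (listed as FIGF) had at most 7 reads in any library and were not tested.

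The semaphorins and plexins, which share the neuropilins with VEGF, had 12 tested genes with ASAH1 shRNA #1, of which 3 rose, 8 fell and 1 did not pass. With ASAH1 shRNA #2 the counts were 3, 6 and 2 of 11. SEMA3B fell with both hairpins, by 1.79 (limma adjusted p = 6.74e-08) and 1.38 (limma adjusted p = 2.07e-06) on the log2 scale. SEMA3G also fell with both (-1.06 and -2.78, limma adjusted p = 0.0025 and 4.47e-06). Its second value rested on 8 or 9 reads per ASAH1 shRNA #2 library. That value ranged from -2.94 to -2.34 over the alternatives that kept all libraries. SEMA3D rose with both (1.14 and 2.60, limma adjusted p = 0.0109 and 1.05e-05), from no more than 32 reads in an NS shRNA library. PLXNA4, a plexin that transmits the semaphorin signal, rose with ASAH1 shRNA #1 (1.81, limma adjusted p = 1.47e-05) and stood at -0.03 with ASAH1 shRNA #2 (limma adjusted p = 0.937).

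Proteases and cofactors that process the ligands were split. Of 6 tested, 2 rose and 3 fell with ASAH1 shRNA #1, and 1 rose and 4 fell with ASAH1 shRNA #2. PLAU, the urokinase plasminogen activator, was at 604 to 626 CPM with NS shRNA, 1526 to 1583 with ASAH1 shRNA #1 and 182 to 198 with ASAH1 shRNA #2. It therefore rose with the first hairpin (1.33, limma adjusted p = 1.16e-08) and fell with the second (-1.70, limma adjusted p = 5.07e-09). PLAT, the tissue plasminogen activator known to activate latent PDGF-CC, did the reverse, at -0.39 (limma adjusted p = 4.23e-05) and 1.41 (limma adjusted p = 1.55e-08). PDGFC itself was lower with the first hairpin and higher with the second. ADAMTS3, the protease that cleaves pro-VEGFC, rose with ASAH1 shRNA #1 (0.68, limma adjusted p = 0.0465) on at most 39 reads and was at -0.90 with ASAH1 shRNA #2 (limma adjusted p = 0.0711). The first of these calls was lost without NS shRNA replicate 1, without any single ASAH1 shRNA #1 library, with DESeq2, with no filter on low values, in 1 limma fit of all 9 libraries and with a replicate block. The second passed in the fit of all 9 libraries and without NS shRNA replicate 1. The proprotein convertases PCSK5 and PCSK6 had too few reads to test.

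Oxygen sensing is the system through which low oxygen is known to raise VEGFA. Of its 7 tested genes, none rose with either hairpin, 5 fell with ASAH1 shRNA #1 and 3 with ASAH1 shRNA #2. Of all genes tested, 32.8% and 33.5% rose and 33.3% and 33.4% fell with the first and second hairpin. EGLN3, a prolyl hydroxylase and itself a known target of the hypoxia-inducible factors, lay at 36.0 to 39.8 CPM with NS shRNA, 7.015 to 8.29 with ASAH1 shRNA #1 and 37.45 to 42.6 with ASAH1 shRNA #2. It fell with ASAH1 shRNA #1 (-2.32, limma adjusted p = 3.09e-08) and stood at 0.06 with ASAH1 shRNA #2 (limma adjusted p = 0.515). Whether oxygen sensing had a part in the higher VEGFA level with both hairpins was not tested. EGLN1, the prolyl hydroxylase that marks HIF-alpha for degradation, fell with both (-0.96 and -0.20, limma adjusted p = 2.39e-07 and 0.00653). HIF1AN, an asparaginyl hydroxylase, also fell with both (-0.17 and -0.51, limma adjusted p = 0.0201 and 3.53e-05), the first call being lost without NS shRNA replicate 1 or ASAH1 shRNA #1 replicate 1 or 2. EPAS1, which encodes HIF-2 alpha, was at -0.14 with ASAH1 shRNA #1 (limma adjusted p = 0.153) and fell with ASAH1 shRNA #2 (-0.41, limma adjusted p = 0.0019). EGLN2 was listed with at most 3 reads in any library and could not be compared. Whether reads it shares with an overlapping gene were left out in counting was not tested, so this value does not show that EGLN2 is not expressed.

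All 15 genes of receptor-proximal signalling could be tested. With ASAH1 shRNA #1, 5 rose, 2 fell and 8 did not pass, and with ASAH1 shRNA #2, 10 rose, 3 fell and 2 did not pass. Of all genes tested, 32.8% and 33.5% rose and 33.3% and 33.4% fell with the first and second hairpin. PIK3R1, the regulatory subunit of PI3-kinase, rose with both (0.76 and 0.92, limma adjusted p = 8.68e-05 and 1.48e-05). The adaptor SHC2 rose with ASAH1 shRNA #1 (0.55, limma adjusted p = 0.000527) and was at 0.02 with ASAH1 shRNA #2 (limma adjusted p = 0.843). CBL, a ubiquitin ligase that sends activated receptors to degradation, rose with ASAH1 shRNA #2 (0.87, limma adjusted p = 2.89e-06) and was at 0.02 with ASAH1 shRNA #1 (limma adjusted p = 0.827).

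**Figure D5:**
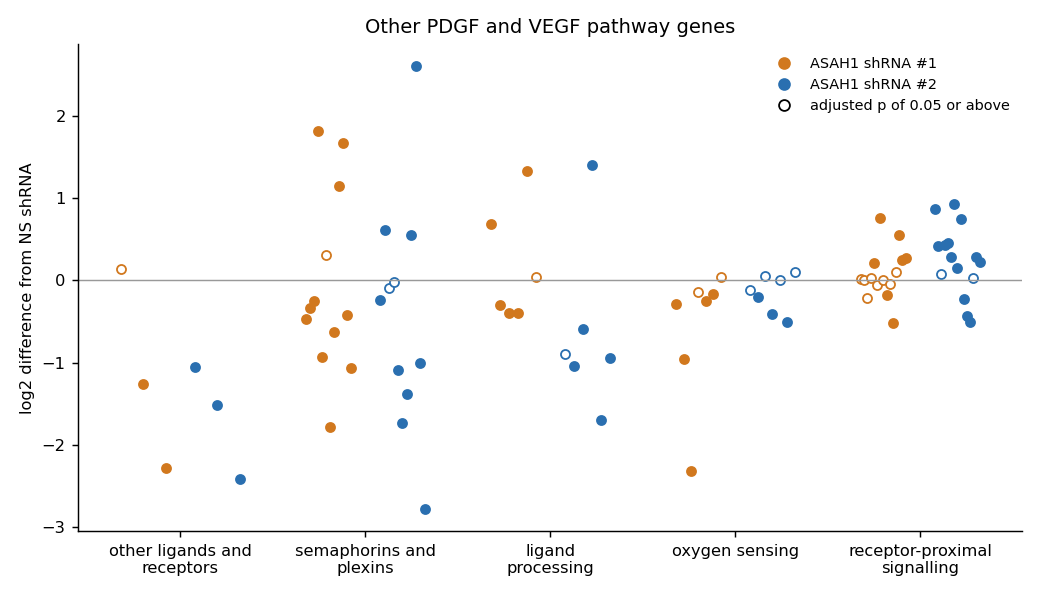
Log2 difference from NS shRNA (vertical axis) of the tested genes in the 5 groups of the pathway list, for ASAH1 shRNA #1 (orange) and ASAH1 shRNA #2 (blue); each point is 1 gene from 3 against 3 libraries, filled where the limma adjusted p was below 0.05. None of the 7 oxygen sensing genes passes the test above 0, and among the 15 receptor-proximal genes 10 pass above 0 with ASAH1 shRNA #2. Of all genes tested, 32.8% pass above 0 with ASAH1 shRNA #1 and 33.5% with ASAH1 shRNA #2.

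PDGFB had the largest difference from NS shRNA of the 9 genes with enough reads, so the genes with the most similar profile were looked up over the 9 libraries, among 11631 genes with a mean of at least 100 reads. The Pearson correlation of log2(CPM + 1) was 0.997 for EFEMP1, PRSS23 and CRISPLD2 and 0.996 for ALOX5. EFEMP1, an extracellular matrix protein, had mean levels of 130.2, 39.5 and 32.8 CPM in NS shRNA, ASAH1 shRNA #1 and ASAH1 shRNA #2, and PRSS23, a secreted serine protease, had 551, 233 and 200.4. ALOX5, the enzyme that begins leukotriene synthesis, had 14.5, 7.31 and 6.23. The 9 libraries fall into 3 groups, so such correlations mostly restate the differences between group means, and they are given as a description.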

How the data were processed

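RNA of 9 MDA-MB-231 samples was sequenced as single-end 76-base reads. Per the study's methods, the authors used Trimmomatic 0.36 for trimming, STAR 2.7.1a for alignment to hg38 and HTSeq for counting per gene on the reverse strand and fitted each ASAH1 shRNA with NS shRNA in DESeq2 1.28, while a further methods paragraph names other tools. The labels name both poly(A) selection and ribosomal RNA depletion for library preparation, and which applied is not settled here. The deposited signal per gene and library is the number of reads over a size factor (1 factor per library), in a table for each hairpin, and the authors' fold changes and p-values in those tables were not used. 28 gene symbols turned into dates in a table were restored from the other. Whole reads were recovered from the signal (all values within 0.01 of a whole read, NS shRNA reads identical in both tables) and gave a depth of 23806003 to 49659106 reads per library. All columns were matched to samples.

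Differences from NS shRNA were fitted within each table with limma 3.58.1 (trend) on log2(signal + 1) for genes whose mean was 10 or more, and the hairpins were compared with edgeR 4.0.16 (quasi-likelihood, TMM, filterByExpr) on the reads of all 9 libraries. Tests were two-sided with Benjamini-Hochberg adjustment over all genes and a threshold of 0.05, and each fit was tested on simulated data. Levels in CPM used TMM scaling. The study calls the 3 samples of a group biological replicates, and how the cultures were kept apart is not given in the sources used here, so p-values measure the spread between these samples. The members and lists were chosen with earlier results of these data known. Named genes were every member, ASAH1 and ACTB, in each pathway group and comparison the 2 genes past the threshold with the largest difference, and the 5 genes most correlated with PDGFB, of which 1 is not reported here. Gene positions are those of GENCODE 44 on hg38, and promoter sequences those of RefSeq. Alternatives were pseudocounts of 0.1 and 5, other filters (none, or a mean of at least 50), limma without trend, upper quartile scaling, edgeR and DESeq2 1.42.0 on recovered reads, other size factors, 1 fit of all libraries, the 6 knockdown libraries alone, a replicate block, longest-transcript lengths, and each library left out in turn.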

Additional observations from a re-analysis of the deposited data

Results flagged for a closer look

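VEGFC, VEGFA, PDGFC, NRP2, NRP1 and PDGFB differed between the 2 hairpins by edgeR's test of the difference itself, which is what brought them here. As log2 ratios of ASAH1 shRNA #2 to ASAH1 shRNA #1, VEGFC stood at 1.18, VEGFA at 0.98, PDGFC at 0.94, NRP2 at 0.88, NRP1 at 0.71 and PDGFB at -1.19. PDGFC and NRP1 were on opposite sides of NS shRNA with the 2 hairpins. The residual ASAH1 level also differed, at a log2 ratio of -0.88, and its part in these differences was not tested.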

How the results depend on the processing

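Each count of members or pathway genes past the threshold stayed within 1.5 times its value under every alternative run, with the exceptions of the directional member counts named here. Members differing from NS shRNA numbered 7 to 8 with ASAH1 shRNA #1 and 7 to 9 with ASAH1 shRNA #2 when single libraries were left out, and 6 to 7 between hairpins. Pathway genes numbered 26 to 28 and 30 to 33. Members lower with ASAH1 shRNA #2 went from 5 to 3 without NS shRNA replicate 2, and members lower with ASAH1 shRNA #2 than with #1 went from 1 to 2 with upper quartile factors or without replicate 2 of either hairpin, through PDGFRB. PDGFA with ASAH1 shRNA #1 no longer passed in 8 alternatives, among them those without NS shRNA replicate 1 or 2 or ASAH1 shRNA #1 replicate 1 or 2, and NRP2 with ASAH1 shRNA #2 no longer passed without NS shRNA replicate 2 or 3 or ASAH1 shRNA #2 replicate 3. Values near 0 changed sign when a library was left out: -0.043 to 0.11 for CBL with ASAH1 shRNA #1, and with ASAH1 shRNA #2 -0.0032 to 0.098 for EGLN3, -0.20 to 0.077 for PLXNA4 and -0.042 to 0.093 for SHC2, which was also -0.022 after upper quartile rescaling. Between hairpins the ranges were -0.14 to 0.098 for PDGFA and -0.047 to 0.037 for VEGFB. The cause was not tested. Same-numbered libraries did not deviate together against NS shRNA (r of -0.316 to -0.0982). Between hairpins each library correlated best with its own number (r of 0.0573 to 0.226). With 3 libraries per group these correlations cannot decide whether the numbers pair the samples. With a replicate block the member counts were 7, 8 and 6 and the pathway counts 24 and 30. Among the named genes, PDGFA, ADAMTS3 and HIF1AN with ASAH1 shRNA #1, and NRP2 and EGLN1 with ASAH1 shRNA #2, no longer passed under it. Depth limits PDGFD, at 3 reads or fewer, and PDGFB, at 10 to 39 reads in the knockdown libraries.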
